A study of Mus musculus with 9 samples.

Results

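The Kruppel-like factors described here were Klf2, Klf3, Klf4, Klf6, Klf7, Klf9, Klf10 and Klf13, taken as every probe set that the platform annotation assigns to 1 of these 8 gene symbols. That gave 30 of the 45101 probe sets on the array, and 27 of the 30, from all 8 genes, passed a filter on mean signal. The sets of a gene are numbered from 1 by falling mean signal, and the plots give each set's number with its array identifier. Signal cannot be compared between sets. The arrays measured total RNA of mouse pre-B cells, a stage of B cell development that precedes a complete antigen receptor. All 9 samples, controls included, carried the genotype IRF4,8 -/-, and they fell into 3 groups of 3 arrays: high IL-7 (IL7hi), low IL-7 (IL7lo), and high IL-7 with IRF4 reintroduced (+IRF4). The labels give IL-7 as 5 and 0.25 ng but differ over the volume it refers to, so no concentration is given here. They leave out how IRF4 was reintroduced and list no control arrays that went through that step without IRF4. Nothing in them tells separate cultures or animals from repeats of 1, so the p-values measure only the spread between these arrays, which may be technical.

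Kruppel-like factors are transcription factors that bind GC-rich and CACCC elements through C2H2 zinc fingers at their carboxyl end. Several restrain proliferation or hold lymphocytes in a resting state, and KLF2 and KLF4 are known FOXO targets in lymphocytes, while IL-7 signalling through PI3K and AKT keeps FOXO factors out of the nucleus. IL-7 drives the division of B cell precursors, and IRF4 and IRF8 are interferon regulatory family factors needed for light-chain rearrangement.

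Array medians lay between 139.7 and 151.3 intensity units. Of 10 listed markers of pre-B cells, 9 were read by a probe set with a single gene name and all 9 passed the filter, among them Vpreb1 and Igll1 of the surrogate light chain. Their summed intensity was 39980 to 48672 in high IL-7, 67758 to 71594 in low IL-7 and 43110 to 46357 with IRF4, so the low IL-7 arrays were highest. Of 15 markers of stroma and fibroblasts 14 were read, and their summed intensity was 6253, 33329 and 19689 in high IL-7 replicates 1 to 3, 3168 to 8965 in low IL-7, and 22461, 3249 and 4766 in the IRF4 arrays. Of these 14, Dcn, Lum and Postn lay below the filter. In such bulk RNA, fewer cells of a type and less RNA per cell cannot be told apart. Of 10 myeloid markers, Mpo, Elane, S100a8 and S100a9 lay below the filter, and the summed signal was 1199.5 to 1276 in high IL-7, 1289.7 to 1433 in low IL-7 and 1179.5 to 1344.5 with IRF4. Of the 6 tested, Itgam rose in low IL-7, by 2.01 (limma adjusted p = 1e-05). It read 37.5 to 50.2 in high IL-7, 172 to 259 in low IL-7 and 43.1 to 69.8 with IRF4. Only its low IL-7 arrays lay above the intensity of the filter, so the size of this rise rests on high IL-7 readings below it. Of 8 endothelial markers, Cdh5, Tek, Tie1, Emcn and Esam lay below the filter, and the other 3, Pecam1, Kdr and Eng, rose in low IL-7 by 1.23, 0.42 and 0.30. The summed endothelial signal was 1228 to 1335 in high IL-7, 1668 to 1689 in low IL-7 and 1273 to 1461 with IRF4, so the low IL-7 arrays lay above all others, as they did for Klf7. For 8 T cell markers it was 1557 to 1868, 1710 to 1954 and 1470 to 1559, and for 5 erythroid markers 510 to 533, 506 to 544 and 513 to 604. The part of any of these cell types in the Klf values was not tested.

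All changes are differences of log2(intensity + 16) between means of 3 arrays, a scale on which dim probe sets change less than their signal did. Adjusted p-values come from limma with Benjamini-Hochberg adjustment over all 27022 probe sets past the filter, and a probe set with an adjusted p under 0.05 was called. In low IL-7 against high IL-7, 8 of the 27 Klf probe sets were called, 5 higher and 3 lower. Of all probe sets, 36.4% were called in that comparison, 18.1% higher and 18.3% lower. With IRF4 against high IL-7, 1 of 27 was called, lower, against 2.76% of all probe sets, 1.58% higher and 1.18% lower. With IRF4 against low IL-7, 7 of 27 were called, 1 higher and 6 lower, against 37.5% of all, 17.2% higher and 20.3% lower. Groups did not overlap at 13, 5 and 10 of the 27 in these 3 comparisons, against 49.2%, 20.4% and 49.6% of all probe sets. Except for the single call with IRF4 against high IL-7, which was 1 of 27, the members' shares in either direction together lay below those of the array as a whole, so these counts are no result about the family. The median change of the 27 was 0.12, 0.00 and -0.07 beside 0.03, -0.02 and -0.02 over all probe sets. Same-numbered arrays of high and low IL-7 deviated together from their group means. With the replicate number as a block and only those 2 groups in the fit, a setting added after the data were seen, 15 of the 27 were called, 11 higher and 4 lower, against 43.5% of all probe sets, 21.8% higher and 21.7% lower. These 15 held all 8. In that setting the members' share lay above that of the array, but several of the probe sets read the same gene. Without the block, the count of 8 in low IL-7 was 4 without high IL-7 replicate 1 or low IL-7 replicate 2 or 3, and 5 without low IL-7 replicate 1 or IRF4 replicate 2. Over all probe sets the count of 9827 became 8687, 8041, 7479, 9309 and 9267 in these settings, in that order. The single call with IRF4 against high IL-7, of Klf9 set 3, became none without high IL-7 replicate 2 or 3. The same held without any 1 of the 3 low IL-7 arrays or IRF4 replicate 2 or 3. Over all probe sets the count of 745 became 352 to 611 in those settings. Without high IL-7 replicate 1 that call was lost as well, but 1 other, Klf13 set 2, was called higher, beside 623 of all probe sets. Without IRF4 replicate 1, 3 were called, beside 1047 of all probe sets. Comparisons against the same arrays share those arrays and are not independent of each other.

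**Figure D1:**
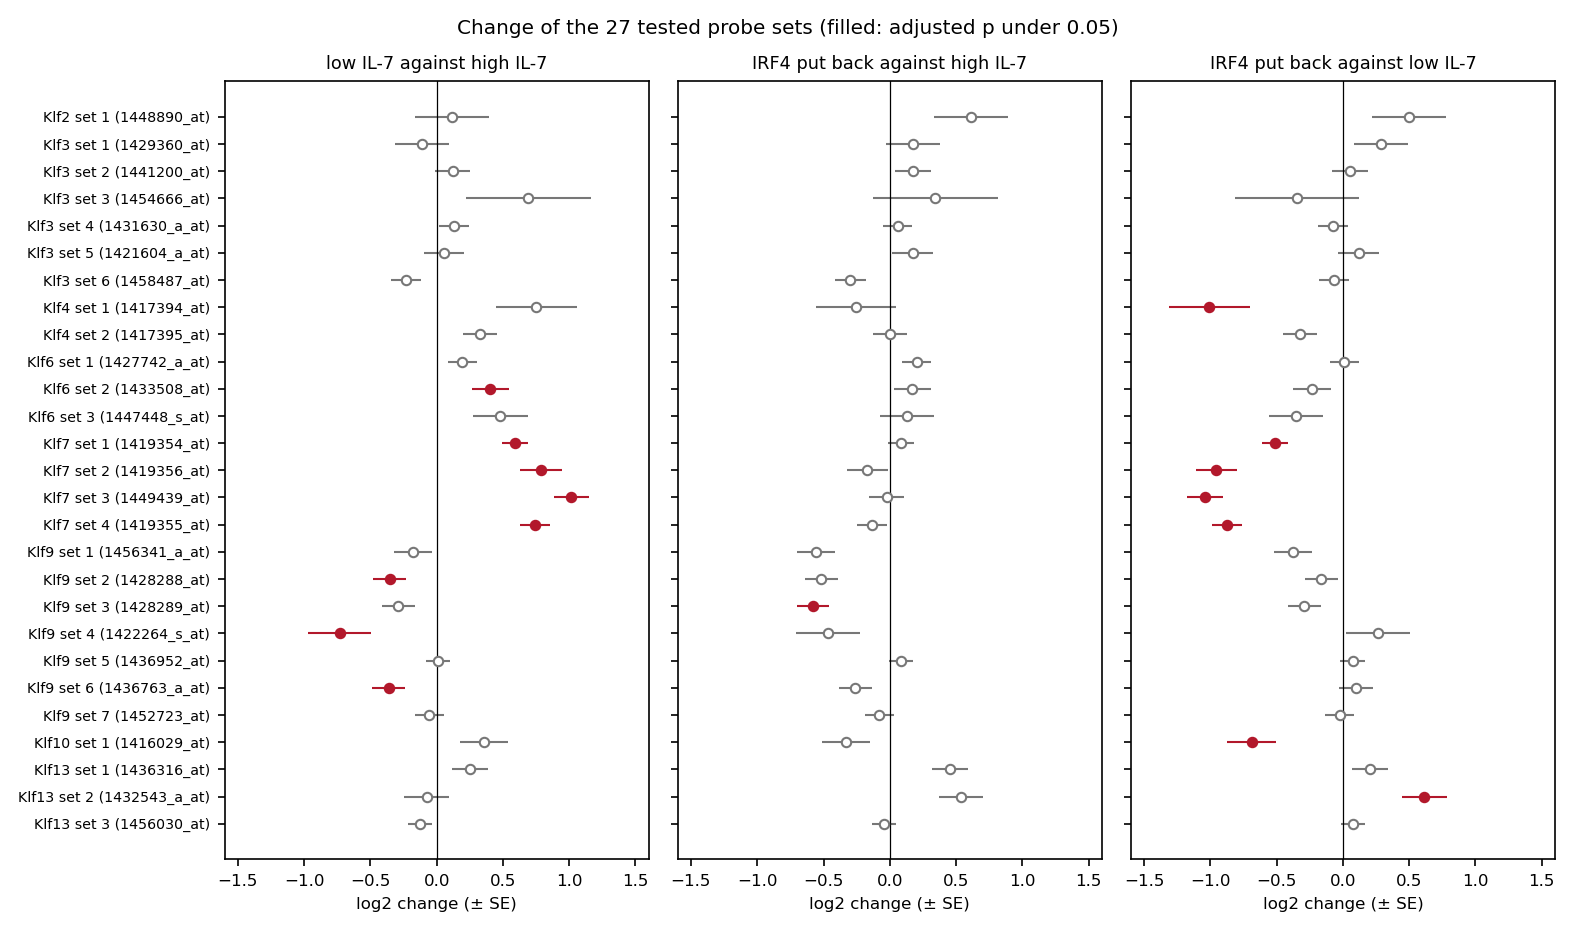
Change on the log2 scale (x axis, point ± SE) of each of the 27 tested Klf probe sets (y axis) in the 3 comparisons, with filled red points for an adjusted p under 0.05. The 4 Klf7 probe sets lie at 0.59 to 1.02 in low IL-7 against high IL-7, at -0.17 to 0.08 with IRF4 against high IL-7 and at -1.04 to -0.51 with IRF4 against low IL-7.

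Klf7, a factor best known from developing neurons, rose in low IL-7 at all 4 of its probe sets. These 4 are annotated to the same GenBank entry, so their readings are not separate evidence. Set 1, the brightest, read 359, 407 and 357 intensity units in high IL-7, 597, 541 and 578 in low IL-7, and 404, 429 and 359 with IRF4. Every low IL-7 array lay above all 6 others, and the other 2 groups overlapped. The rise in low IL-7 was 0.59 (SE 0.10, 1.51-fold, limma adjusted p = 0.000813), and with IRF4 the change from high IL-7 was 0.08 (SE 0.10, adjusted p = 0.759).

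The largest Klf7 change was that of set 3, which read 206, 211 and 172 in high IL-7, 436, 372 and 432 in low IL-7, and 214, 215 and 154 with IRF4. Here too the low IL-7 arrays stood clear of all others, by 1.02 against high IL-7 (SE 0.13, 2.02-fold, limma adjusted p = 0.000171). Sets 2 and 4 rose by 0.79 (adjusted p = 0.00266) and 0.74 (adjusted p = 0.000441). With IRF4 all 4 were lower than in low IL-7, with changes of -1.04 to -0.51. In each of the alternative settings in which these probe sets were tested, single arrays left out included, Klf7 kept its 4 calls against high IL-7 and its 4 against low IL-7. High IL-7 replicate 2, where the stromal signal was 33329, read highest of its group at set 1, 407, and lower than every low IL-7 array. The part of stromal RNA in the Klf7 values was not tested.

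**Figure D2:**
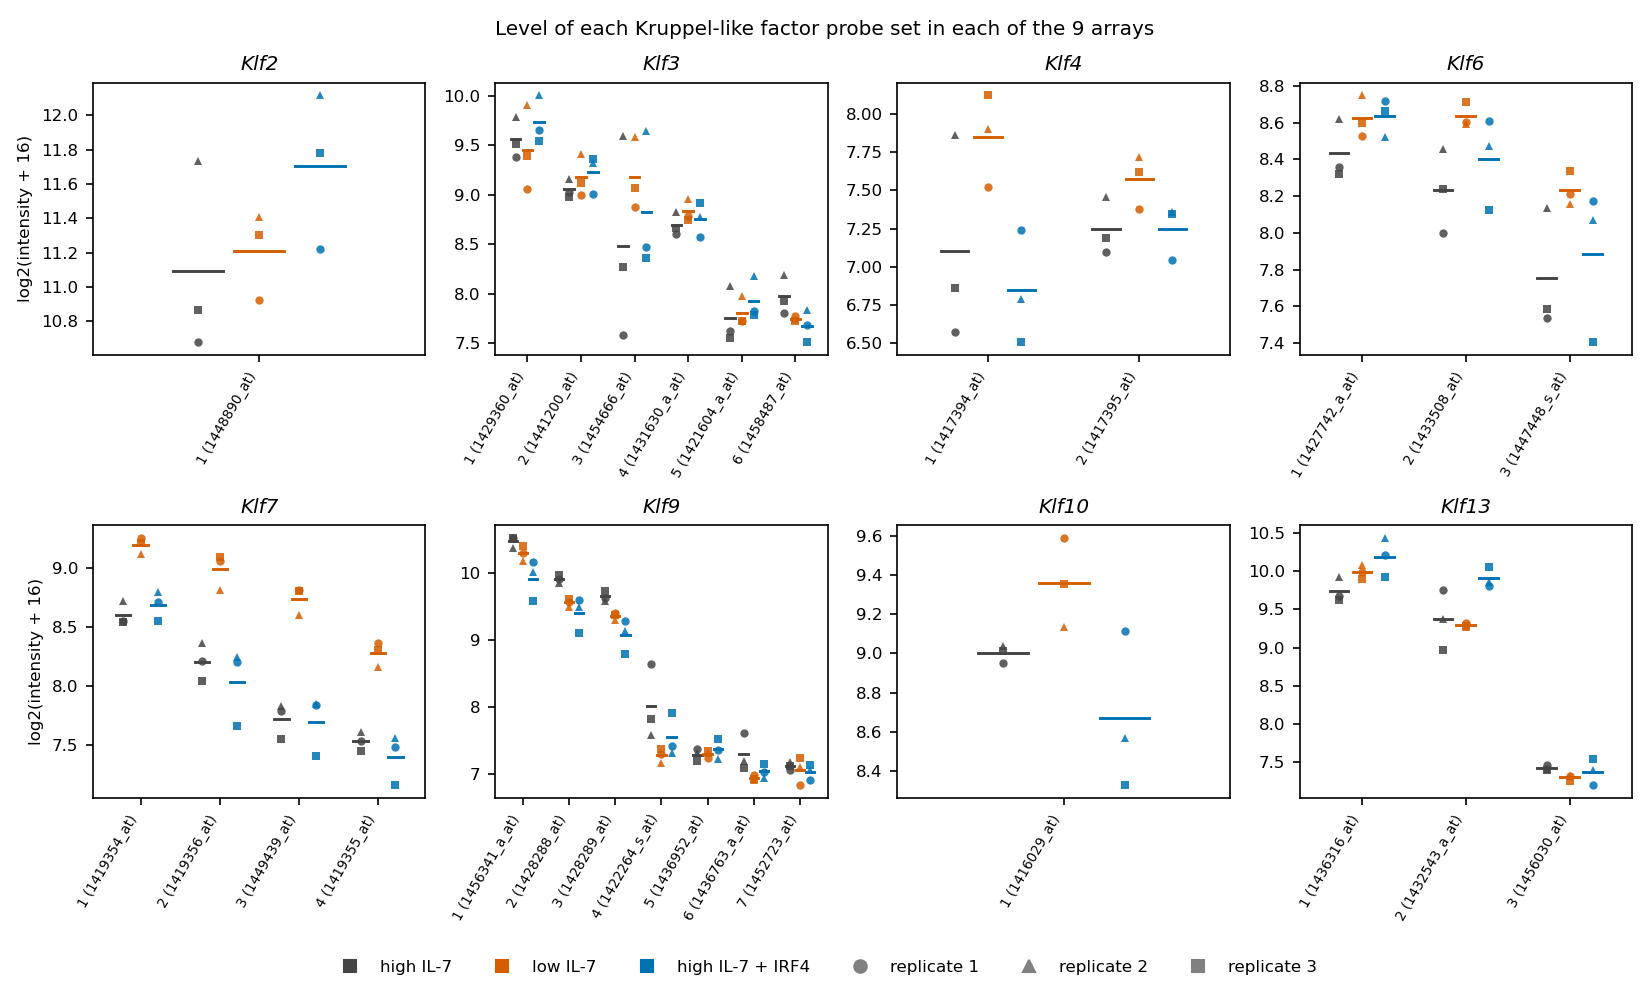
Level of each tested Klf probe set on the scale of log2(intensity + 16) (y axis) in the 9 arrays, 1 panel per gene, with arrays as points (colour for the group, shape for the replicate number) and group means as lines. The Klf7 points for low IL-7 lie above those of both other groups at all 4 probe sets, while those of Klf2 overlap between groups.

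Klf4, which restrains the cell cycle in B cells and other cells, was read by a pair of probe sets annotated to 1 GenBank entry, and its levels were spread widely within groups. Set 1 read 79.0, 217 and 100 in high IL-7, 168, 223 and 264 in low IL-7, and 135, 94.7 and 74.7 with IRF4. The low IL-7 arrays were all above the IRF4 arrays, but high IL-7 replicate 2 reached the low IL-7 range. The mean with IRF4 lay below the intensity of the filter, 108, so the size of the change depends on the added 16.

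With IRF4 against low IL-7 the change of Klf4 at set 1 was -1.01 (SE 0.30, 2.01-fold, limma adjusted p = 0.0237). Against high IL-7, low IL-7 gave 0.75 (SE 0.30, adjusted p = 0.0781, but 0.0203 with the block on high and low IL-7) and IRF4 gave -0.26 (adjusted p = 0.756). The call against low IL-7 was lost without low IL-7 replicate 2 or 3 or IRF4 replicate 2 or 3, reaching an adjusted p of 0.0919. The other, set 2, read 121, 160 and 129, then 150, 195 and 181, then 116, 148 and 146, and changed the same way by less: 0.33 in low IL-7 against high IL-7 (adjusted p = 0.075, but 0.0117 with that block) and -0.33 with IRF4 against low IL-7 (adjusted p = 0.0729). Without low IL-7 replicate 1 these were 0.42 (adjusted p = 0.0381) and -0.42 (adjusted p = 0.0376).

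Within groups, Klf4 was highest at set 1 in the arrays with the strongest stromal signal, high IL-7 replicate 2 and IRF4 replicate 1, but not in low IL-7, where replicate 3 was highest for Klf4 and replicate 2 for the stromal sum. At set 2, replicate 2 was highest in high IL-7 and in low IL-7, at 160 and 195, as for the stromal sum. There IRF4 replicate 1 was the lowest of its group, at 116. High IL-7 replicate 2 also had the highest Fos and Egr1, immediate early genes that rise within minutes of stimulation: Fos read 234, 2838 and 551 in high IL-7 and 147 to 247 in the other 6 arrays, and Egr1 read 392, 2339 and 1186 in high IL-7 and 202 to 725 in the others. The part of stromal RNA or of handling in the Klf4 values was not tested. With high IL-7 replicate 2 dropped, set 1 rose in low IL-7 by 1.14 (adjusted p = 0.00273) and set 2 by 0.43 (adjusted p = 0.0285). With IRF4 replicate 1 dropped as well, an alternative chosen after the data were seen, the rise of set 1 in low IL-7 against high IL-7 was 1.14 (adjusted p = 0.000495), and that of set 2 was 0.43 (adjusted p = 0.0155). High IL-7 replicate 2 was the highest of its group at both sets, so leaving it out had to raise these changes.

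**Figure D3:**
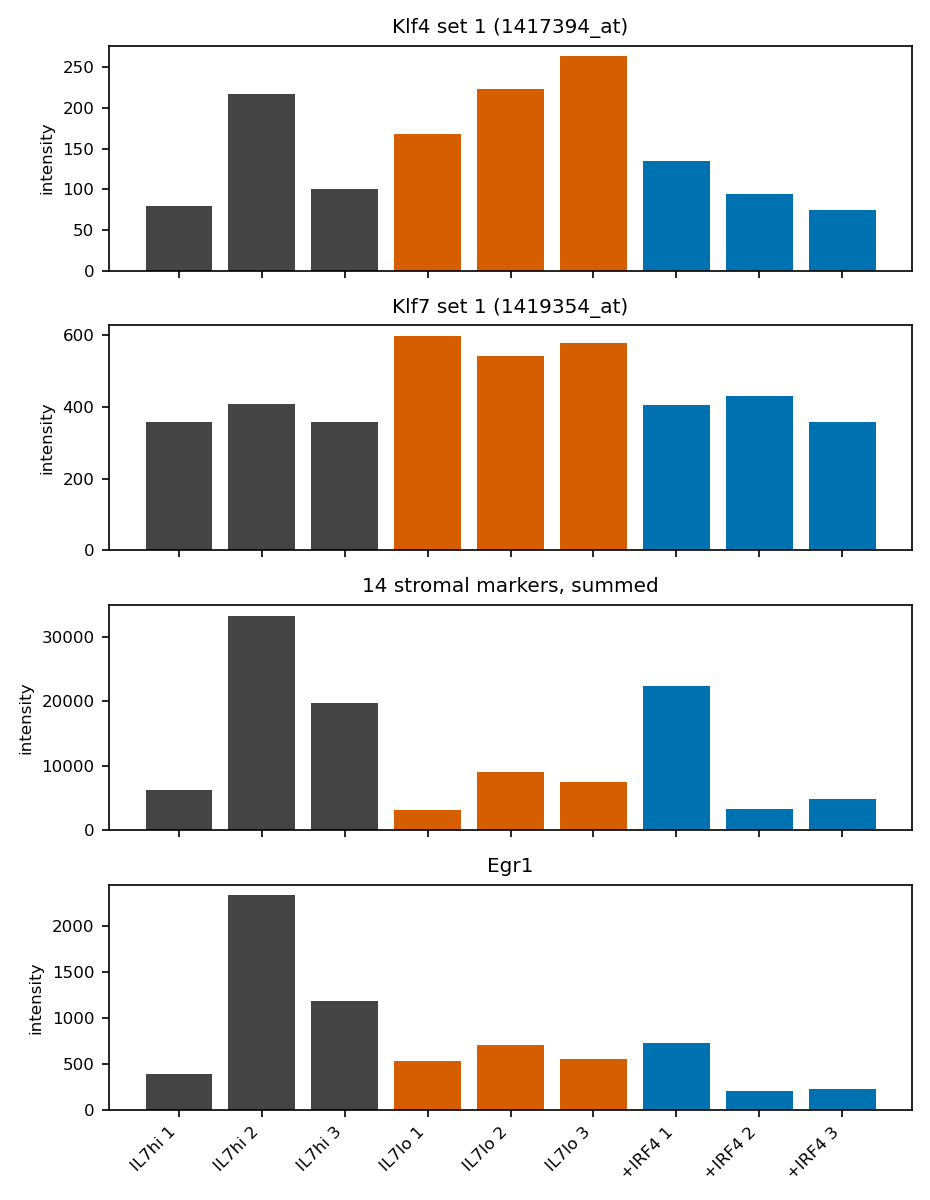
Intensity (y axes, from 0) in each of the 9 arrays (x axis, bars coloured by group) of Klf4 set 1, Klf7 set 1, 14 stromal markers summed, and Egr1. High IL-7 replicate 2 is highest for the stromal sum (33329) and Egr1 (2339), and reads 217 for Klf4, within the low IL-7 range, while its Klf7 value of 407 stays below every low IL-7 array.

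Klf10, also known as TIEG1, an early gene of TGF-beta signalling, differed between the IRF4 and low IL-7 arrays. Its single probe set read 479, 510 and 500 in high IL-7, 755, 547 and 637 in low IL-7, and 539, 364 and 305 with IRF4. The low IL-7 arrays were above all high IL-7 arrays, and IRF4 replicate 1 lay above the other IRF4 arrays and above all of high IL-7. With IRF4 against low IL-7 the change was -0.69 (SE 0.18, 1.61-fold, limma adjusted p = 0.0127), a call lost without low IL-7 replicate 1 (adjusted p = 0.0519). Without the block, neither group differed from high IL-7 by the test: low IL-7 gave 0.36 (95% interval -0.05 to 0.76, adjusted p = 0.155, but 0.0496 without IRF4 replicate 1 and 0.0378 with the block on high and low IL-7) and IRF4 gave -0.33 (95% interval -0.73 to 0.07, adjusted p = 0.439).

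Klf9, a factor induced by glucocorticoid and thyroid hormone, was read by 7 tested probe sets that did not move alike. Set 2 read 947, 909 and 985 in high IL-7, 741, 703 and 768 in low IL-7, and 753, 702 and 536 with IRF4. Set 3, annotated to the same GenBank entry, read 772, 752 and 835, then 660, 614 and 647, then 609, 543 and 426. At both, every high IL-7 array was above all 6 others. The dim set 7, annotated to that entry too, overlapped between groups. Its changes were -0.06 in low IL-7 and -0.08 with IRF4 against high IL-7.

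In low IL-7, 3 of the 7 fell, with changes of -0.35 at set 2 (SE 0.12, limma adjusted p = 0.0442), -0.73 at set 4 (adjusted p = 0.0351) and -0.36 at set 6 (adjusted p = 0.0443). With IRF4 against high IL-7, 1 fell, set 3, with a change of -0.58 (SE 0.12, 1.49-fold, adjusted p = 0.0366), while set 2 gave -0.52 (adjusted p = 0.0553) and the brightest, set 1, gave -0.56 (adjusted p = 0.0713). None of the 7 was called between the IRF4 and low IL-7 arrays. The 2 dimmest, sets 6 and 7, averaged just above the filter, and set 6 lay below it in low IL-7.

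These Klf9 calls were marginal. The call of set 2 in low IL-7 was lost without any 1 of the high and low IL-7 arrays or IRF4 replicate 2, reaching an adjusted p of 0.129, and those of sets 4 and 6 were lost when high IL-7 replicate 1, or any array of low IL-7, was dropped, set 6 also without IRF4 replicate 1 or 2. High IL-7 replicate 1 read 381 at set 4 against 175 and 209 in the other high IL-7 arrays. The call of set 3 with IRF4 was lost without any 1 array other than IRF4 replicate 1, reaching an adjusted p of 0.116. With IRF4 replicate 1 dropped, sets 1, 2 and 3 were all called with IRF4 against high IL-7, at -0.68, -0.61 and -0.69 (adjusted p = 0.0266, 0.0272 and 0.0136). Set 3 was also called in low IL-7 without IRF4 replicate 3 (adjusted p = 0.0267) and with the block on high and low IL-7 (adjusted p = 0.0263). With a block over all 9 arrays the call of set 2 in low IL-7 was lost (adjusted p = 0.0574). The direction stayed the same in every alternative for these calls.

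Klf6, a growth-restraining factor that responds early to injury, was read by 3 tested probe sets, of which 1 was called in low IL-7. Set 2 read 240, 335 and 286 in high IL-7, 373, 371 and 404 in low IL-7, and 374, 340 and 263 with IRF4. Low IL-7 lay above high IL-7 without overlap, by 0.41 (SE 0.14, 1.33-fold, limma adjusted p = 0.046), and the IRF4 arrays spanned both. The call was lost without high IL-7 replicate 1 or 3, any array of low IL-7, or IRF4 replicate 2, reaching an adjusted p of 0.154, and with a block over all 9 arrays (adjusted p = 0.0618). The other 2 gave 0.19 (set 1, adjusted p = 0.197) and 0.48 (set 3, adjusted p = 0.0928, but 0.0219 without high IL-7 replicate 2, 0.0292 without IRF4 replicate 3 and 0.0269 with the block on high and low IL-7).

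Klf13, which activates the chemokine gene Ccl5 in T cells, had 3 tested probe sets that disagreed. Set 2 read 851, 649 and 485 in high IL-7, 625, 603 and 605 in low IL-7, and 878, 910 and 1051 with IRF4. The IRF4 arrays were above all 6 others, and were higher than low IL-7 by 0.61 (SE 0.17, 1.53-fold, limma adjusted p = 0.015), a call lost without IRF4 replicate 3 (adjusted p = 0.0548). Against high IL-7 the difference was 0.54 (adjusted p = 0.14, but 0.0234 without high IL-7 replicate 1). The brighter set 1 read 805, 954 and 772 in high IL-7, 1004, 1064 and 940 in low IL-7, and 1170, 1374 and 956 with IRF4, a change of 0.45 with IRF4 against high IL-7 (adjusted p = 0.125) and 0.20 against low IL-7 (adjusted p = 0.276). Low IL-7 differed from high IL-7 there by 0.25 (adjusted p = 0.185, but 0.0464 with the block on those 2 groups). The dim set 3 stayed between 131 and 170 in all 9 arrays.

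Klf2 keeps lymphocytes quiescent and directs their traffic by inducing S1pr1. It gave no call in the fit of group means over all 9 arrays without a block or array weights. With array weights it was called higher with IRF4 than in either other group. Its single probe set read 1621, 3386 and 1851 in high IL-7, 1928, 2696 and 2509 in low IL-7, and 2368, 4429 and 3507 with IRF4. The 3 groups overlapped, and replicate 2 was the highest in each. Low IL-7 differed from high IL-7 by 0.12 (95% interval -0.50 to 0.74, limma adjusted p = 0.782), so the interval includes a rise of up to 0.74, and its direction turned without high IL-7 replicate 1 (-0.09, adjusted p = 0.853). IRF4 gave 0.61 against high IL-7 (95% interval -0.00 to 1.23, adjusted p = 0.333) and 0.50 against low IL-7 (95% interval -0.12 to 1.12, adjusted p = 0.195). The arrays with the strongest stromal signal in their groups were also the highest of high IL-7 (replicate 2) and the lowest of IRF4 (replicate 1) for Klf2. Without both, a setting chosen after the data were seen, IRF4 gave 1.18 against high IL-7 (adjusted p = 0.00352) and 0.74 against low IL-7 (adjusted p = 0.00404). Low IL-7 gave 0.44 against high IL-7 (adjusted p = 0.051). That left 2 arrays in the high IL-7 and IRF4 groups. Because the arrays dropped were the extreme ones for Klf2, these differences had to grow, so their p-values are no added evidence.

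Klf3, a repressor that works through CtBP proteins and shapes B cell subsets, gave no call at any of its 6 tested probe sets in the fit of group means without a block or array weights. The widest spread was at set 3, which read 176, 757 and 293 in high IL-7, 452, 751 and 522 in low IL-7, and 340, 786 and 313 with IRF4. Replicate 2 was again the highest of each group, with 751 to 786, and the change in low IL-7 was 0.69 (SE 0.47, limma adjusted p = 0.288), or 1.25 (adjusted p = 0.0241) without high IL-7 replicate 2. With the block on high and low IL-7 the adjusted p of 0.69 was 0.0322, and with a block over all 9 arrays 0.0404. With array weights set 6 was called in low IL-7 (-0.24, adjusted p = 0.0204) and set 1 between IRF4 and low IL-7 (0.45, adjusted p = 0.0226). Replicate 2 had the highest stromal signal in high IL-7 and in low IL-7, 33329 and 8965, and the lowest with IRF4, 3249, and the part of that signal in the Klf3 values was not tested. At the brightest, set 1, the arrays ran from 515 to 1016 and the change in low IL-7 was -0.11 (adjusted p = 0.719). Set 7 of Klf3 and sets 4 and 5 of Klf6 did not pass the filter and were not tested. They read 56.0 to 77.7, 78.1 to 126 and 35.9 to 61.1.

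The genes with the nearest profiles were sought for the members whose brightest probe set was called, by the root mean square difference of log2 values over the 9 arrays after centring each gene on its own mean, among 12820 other genes. For Klf7 these were Usp3, a deubiquitinase (0.05), and Map4k4, a kinase (0.05), against a median of 0.31 over all genes. Usp3 changed by 0.63 in low IL-7 (limma adjusted p = 0.001) and Map4k4 by 0.64 (adjusted p = 0.000892), and with IRF4 against high IL-7 they gave 0.12 and 0.10. For Klf10 they were Prkra, an activator of the kinase PKR (0.07), and Tbc1d19 (0.07). For Klf4 they were Kdm5b, a histone H3 lysine demethylase (0.19), and Malat1, a nuclear long noncoding RNA (0.20), against a median of 0.59. Malat1, like Klf4 set 1, was highest within its group in high IL-7 replicate 2, at 7669, and in IRF4 replicate 1, at 6399. All these genes were picked for their likeness over the same 9 arrays. Their shared changes follow from that choice, and their p-values are no added evidence.

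**Figure D4:**
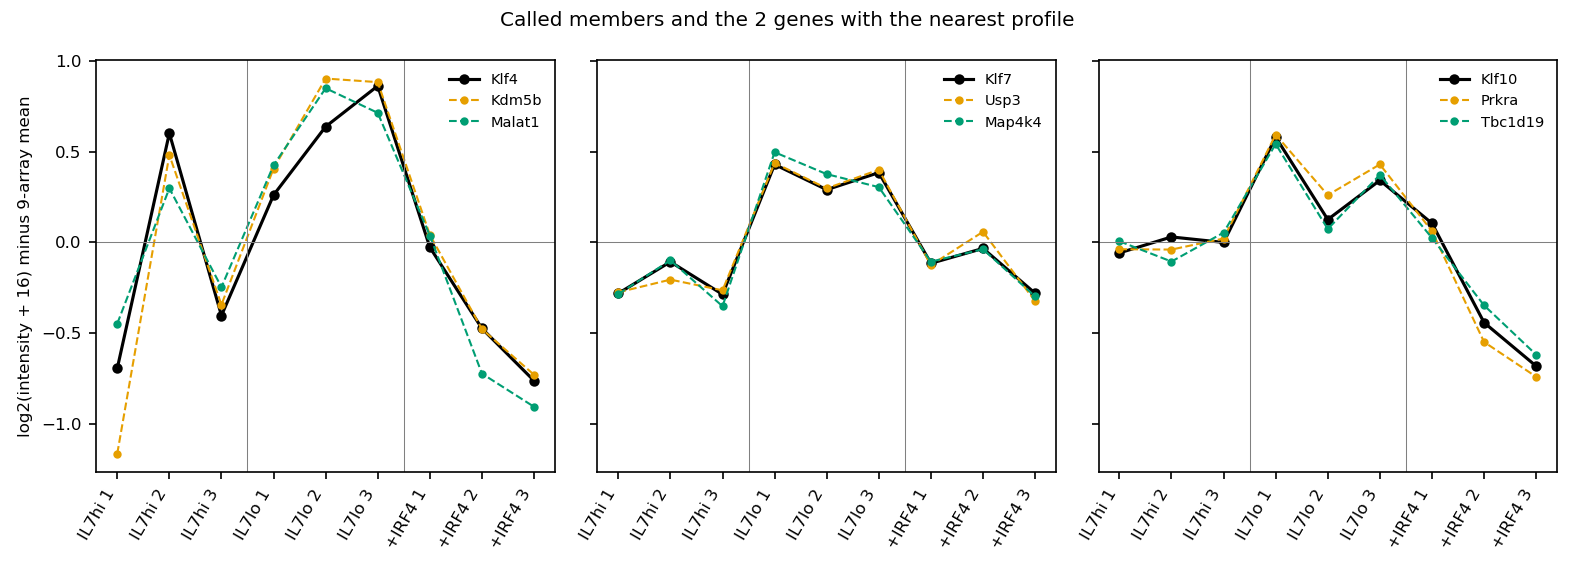
Profiles of Klf4, Klf7 and Klf10 (black, brightest probe set) and of the 2 genes nearest to each (coloured) over the 9 arrays (x axis), as log2(intensity + 16) minus the mean of the 9 arrays (y axis). Usp3 and Map4k4 each lie 0.05 from Klf7 by root mean square, and all 3 are highest in the 3 low IL-7 arrays, while Klf4 and its neighbours are highest within high IL-7 in replicate 2.

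The bases upstream of the gene start were read for 7 of the 8 members from RefSeq (GRCm38.p6), 250 bases each, among 32851 such windows. Those of the 3 members with called probe sets and differing patterns are shown: Klf7 at chr1:64121390-64121639 (minus strand), Klf4 at chr4:55532476-55532725 (minus strand) and Klf9 at chr19:23140976-23141225 (plus strand). Capitals mark the GC box GGGCGG and the CACCC box CCACCC, which Kruppel-like factors themselves can bind, the FOXO core TGTTTA and the STAT5 element TTCNNNGAA, on either strand. A GC box and a CACCC box can overlap, as can 2 GC boxes.
Klf7: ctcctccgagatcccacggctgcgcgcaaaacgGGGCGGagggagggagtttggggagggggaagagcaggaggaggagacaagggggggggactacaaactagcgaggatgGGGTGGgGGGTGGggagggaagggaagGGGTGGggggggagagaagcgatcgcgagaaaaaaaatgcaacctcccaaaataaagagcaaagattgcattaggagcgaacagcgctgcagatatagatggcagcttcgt
Klf4: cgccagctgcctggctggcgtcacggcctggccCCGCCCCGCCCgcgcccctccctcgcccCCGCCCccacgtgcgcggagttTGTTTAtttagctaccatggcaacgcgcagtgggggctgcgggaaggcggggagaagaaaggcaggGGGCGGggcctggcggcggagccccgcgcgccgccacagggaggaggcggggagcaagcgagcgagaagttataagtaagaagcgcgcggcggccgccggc
Klf9: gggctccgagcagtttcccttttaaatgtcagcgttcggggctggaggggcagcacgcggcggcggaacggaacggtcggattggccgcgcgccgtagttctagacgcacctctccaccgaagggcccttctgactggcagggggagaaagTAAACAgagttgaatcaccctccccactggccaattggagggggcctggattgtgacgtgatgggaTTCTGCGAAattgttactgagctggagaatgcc

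The Klf7 window held 1 GC box and 3 CACCC boxes, and neither a FOXO core nor a STAT5 element. The Klf4 window held 4 GC boxes, and a FOXO core 167 to 162 bases before the start. The Klf9 window held a FOXO core 99 to 94 bases before the start and a STAT5 element 33 to 25 bases before it, and no GC or CACCC box. The GC box was in 6 of the 7 member windows against 32.7% of all windows, and the CACCC box in 4 of 7 against 28.1%. The FOXO core was in 2 of 7 against 12% of all, and the STAT5 element in 1 of 7 against 7.02%. The member windows held 59.2 to 78.4% G and C against a median of 52.4%. A match is a run of letters and says nothing of binding.

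Other genes of the family were taken from a list of 9 further Klf and 8 Sp genes, of which 11 were tested. In low IL-7, 2 rose and 1 fell. Of all genes, each by its brightest probe set, 36.9% were called there, 17.6% higher and 19.4% lower. Klf16 read 630, 439 and 472 in high IL-7, 252, 195 and 200 in low IL-7, and 463, 486 and 487 with IRF4. It fell by 1.19 (SE 0.14, limma adjusted p = 7.95e-05) in low IL-7, and was higher with IRF4 than in low IL-7 by 1.10 (adjusted p = 0.000145), so its low IL-7 arrays were the lowest where those of Klf7 were the highest. Of all genes 36.3% were called between IRF4 and low IL-7, 18.6% higher and 17.7% lower. Klf14, near the filter, rose by 0.25 (adjusted p = 0.0318, but up to 0.131 without 1 array). Sp4 rose by 0.38 (adjusted p = 0.0127), a call lost without low IL-7 replicate 3 (adjusted p = 0.0513). None of the 11 was called with IRF4 against high IL-7, against 2.85% of all genes, 1.91% higher and 0.935% lower.

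Among regulators reported upstream of Klf genes, 14 were tested, and 5 rose and none fell in low IL-7. Of all genes, 36.9% were called there, 17.6% higher and 19.4% lower. The 5 of 14 lay near the share of all genes in either direction together, so this count is no result about the list. Foxo1, the FOXO factor of B cell precursors, rose by 1.49 (SE 0.09, limma adjusted p = 1.21e-06), from 1015 to 1134 in high IL-7 to 2976 to 3088 in low IL-7. Pik3ip1, an inhibitor of PI3K, rose by 1.48, and Mef2c and Mef2d, factors that bind the Klf2 promoter in other cells, rose by 0.91 and 0.72. With IRF4 against high IL-7, Mef2c rose by 0.99 (adjusted p = 0.000162) and Mef2d by 0.66 (adjusted p = 0.0118, but 0.0507 without IRF4 replicate 2), and the other 12 were not called. The share of all genes called in that comparison was 2.85%, 1.91% higher and 0.935% lower. Foxo1 gave 0.25 there (adjusted p = 0.178).

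Of 8 tested lymphocyte trafficking genes linked to KLF2 in reports, 1 rose and 1 fell in low IL-7, against 36.9% of all genes called. With IRF4 against high IL-7, 2 rose and 2 fell, against 2.85% of all genes called. A place on the list does not mean that KLF2 raises a gene. S1pr1, the receptor for lymphocyte exit, read 254, 276 and 240 in high IL-7, 568, 686 and 592 in low IL-7, and 385, 418 and 381 with IRF4. It rose by 1.21 in low IL-7 (limma adjusted p = 7.63e-06) and by 0.59 with IRF4 (adjusted p = 0.0109, but 0.0575 without IRF4 replicate 2), while Klf2 was not called in either. Ccr7, the chemokine receptor for lymph node entry, rose by 1.47 with IRF4 (adjusted p = 0.00015) and gave -0.08 in low IL-7 (adjusted p = 0.68). Cxcr5 fell in both, with changes of -0.92 and -0.82 (adjusted p = 0.0183, but 0.0732 and 0.072 without IRF4 replicates 2 and 3). Cd69, an early activation marker that holds back S1pr1, fell with IRF4, at -0.46 (adjusted p = 0.0493), a call lost without any 1 of 7 arrays, all but low IL-7 replicate 2 and IRF4 replicate 1.

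Of 13 tested cell cycle and TGF-beta genes reported as targets of KLF4, KLF6 or KLF10, 4 rose and 2 fell in low IL-7. The share of all genes called there was 36.9%, 17.6% higher and 19.4% lower. Cdkn1a, the CDK inhibitor p21, rose in low IL-7, from 1051 to 1101 in high IL-7 to 1717 to 2704 (SE 0.18 on the log2 scale, limma adjusted p = 0.00133), and read 526 to 815 with IRF4, a change of -1.75 against low IL-7 (adjusted p = 3.91e-05). Tgfbr2 and Tgfbr1, the TGF-beta receptors, rose by 1.57 and 0.66. Myc, a growth-promoting transcription factor, fell by 2.66 in low IL-7 (adjusted p = 2.16e-06), from 2768 to 4565 in high IL-7 to 488 to 673, and read 2517 to 2949 with IRF4. Ccnd2, a D-type cyclin, fell by 3.03 in low IL-7 and rose by 1.12 with IRF4 against high IL-7 (adjusted p = 0.000234). Of 15 tested co-factors and ligases that act on Kruppel-like factors, 4 rose and 2 fell in low IL-7 and none was called with IRF4 against high IL-7. The shares of all genes called were 36.9% and 2.85% in these comparisons. Smarca4, the BRG1 remodelling ATPase, rose by 1.15, the acetyltransferases Kat2b and Ep300 by 0.93 and 0.65, and Wdr5 fell by 0.69.

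Several Klf genes are immediate early genes, so 17 tested genes of that kind were set beside them. In low IL-7, 2 rose and 3 fell, or 4 and 5 with the block on high and low IL-7. Without the block 36.9% of all genes were called, 17.6% higher and 19.4% lower. With it, 43.5% of all probe sets were called, 21.8% higher and 21.7% lower. Hspa1b, a heat shock protein induced by stress and handling, read 219, 333 and 235 in high IL-7, 483, 668 and 707 in low IL-7, and 294, 205 and 217 with IRF4. It rose by 1.19 in low IL-7 (limma adjusted p = 0.000654), so low IL-7 was its highest group, as it was for Klf7, and the part of handling in the Klf7 values was not tested. The others were Btg2, higher by 1.47 (limma adjusted p = 0.00128), Ier2 at -0.70 (adjusted p = 0.00202), Junb at -0.41 (adjusted p = 0.0385) and Fos. Fos fell by 2.02 (adjusted p = 0.0344), a call lost when replicate 3 of high IL-7, or any 1 array of low IL-7, was dropped, and with only those 2 groups in the fit (adjusted p = 0.0532). Without high IL-7 replicate 2 the change was -1.04 (adjusted p = 0.0237). The mean level of the 17 was 8.84, 9.40 and 8.94 in high IL-7, 8.99 to 9.03 in low IL-7 and 8.67 to 8.92 with IRF4, so high IL-7 replicate 2 was the highest of all arrays.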

How the data were processed

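RNA was prepared with Trizol and a column and read on Affymetrix mouse arrays, per the labels. The authors deposited 1 table of linear intensity values for 45101 probe sets and 9 arrays. The method and software that summarised and scaled the probe sets are not given in the sources used here. No detection calls were used, so signal over background was unknown. The platform annotation gave 34945 probe sets 1 gene symbol, 932 several and 9160 none.

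From the deposited values log2(intensity + 16) was computed, leaving out 64 control probe sets and those with a mean below the 40th percentile (108). Group means over all 9 arrays were fitted by lmFit and eBayes with a trend (limma 3.58.1, R 4.3.3), a script tested on simulated data. Each Klf probe set past the filter was tested. In the lists a gene was represented by its brightest probe set. Named were all member probe sets, up to 4 genes of each list by smallest p in a comparison, and the 2 nearest profiles of a called member. Egr1 and Junb were named after their values were seen. Sample titles gave groups and replicate numbers, and the labels name no batch and do not say what a number marks. By the correlation of deviations from group means, same-numbered arrays deviated together between high and low IL-7 (0.19 to 0.53 over 3 pairs). They did not between IRF4 and high IL-7 (-0.35 to -0.02) or low IL-7 (-0.14 to 0.01). Pairs with different numbers, over all groups, ran from -0.51 to 0.41 over 18 pairs. The correlations therefore do not settle whether the numbers mark pairs. High IL-7 replicate 2 correlated at 0.35 with its own number in low IL-7 and at 0.36 with replicate 3. The number of arrays limits the precision. Alternatives changed the pseudocount (1 or 64), the filter, the normalization, the choice of probe set, the trend, the array weights, the replicate block, the groups in the fit and the arrays. The members and lists were chosen with earlier results of these data known. Plots used matplotlib 3.10.9 (Python 3.11.15).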

Additional observations from a re-analysis of the deposited data

How the results depend on the processing

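The Klf7 calls in low IL-7 and between IRF4 and low IL-7 were kept under each alternative in which the probe sets were tested, and no called Klf change turned its direction under any alternative. The counts of called Klf probe sets were less stable. In low IL-7 against high IL-7 the count of 8 became 5 with no filter, with 30 tested, beside 10572 of all 45037 probe sets. It became 5 with the filter at the 60th percentile, beside 8283 of all probe sets. With 1 probe set per gene it was 1, with 8 tested. Array weights gave 16 of 27, and leaving out single arrays gave 4 to 11. With IRF4 against high IL-7 the count of 1 became 2 at the 60th percentile, beside 642 of all probe sets. It became 0 with 1 probe set per gene, 6 with array weights and 0 with only the 2 groups in the fit. Leaving out single arrays gave 0 to 3. Leaving out both high IL-7 replicate 2 and IRF4 replicate 1, which was chosen after the data were seen, gave 3, beside 819 of all probe sets. With IRF4 against low IL-7 the count of 7 became 3 with 1 probe set per gene, 13 with array weights and 5 to 9 without single arrays. Without both of those arrays it was 11, beside 8997 of all probe sets.

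Over all 27022 probe sets, array weights raised the counts from 9827, 745 and 10133 to 15307, 3248 and 15219. Testing 1 probe set per gene gave 4801, 365 and 4666 of 12828, because fewer were tested. For IRF4 against high IL-7 the count was 321 with only the 2 groups in the fit and 352 to 1047 without single arrays. Without single arrays it was 7479 to 10442 in low IL-7 and 7611 to 10706 between IRF4 and low IL-7. The cause of these shifts was not tested.

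With the replicate block and only high and low IL-7 in the fit, added after the data were seen, the Klf count of 8 became 15, among 11757 over all probe sets. Same-numbered arrays did not deviate together between IRF4 and the other groups, which does not settle whether the numbers mark pairs. A block over all 9 arrays gave Klf counts of 8, 2 and 9, among 10121, 875 and 10447 over all probe sets, and Klf2 passed between IRF4 and low IL-7 (0.50, adjusted p = 0.0215). With that block over 9 arrays, Klf3 set 3 (limma adjusted p = 0.0404) and Klf4 set 2 (0.012) also passed in low IL-7, Klf13 set 1 (0.0434) passed with IRF4 against high IL-7, and Klf4 set 2 (0.0118) passed between IRF4 and low IL-7. Klf6 set 2 (0.0618) and Klf9 set 2 (0.0574) no longer passed in low IL-7, and no other Klf call changed. Signal over background was not known, which limits the dim Klf4 probe sets and the dimmest Klf9 probe sets most.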
